A study of Mus musculus with 8 samples.

Results

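The L1 F subfamily small RNAs are the distinct sequences whose deposited annotation begins with L1Md_F, a choice made by name and not by any measured value. The list held 81533 of them among 6246223 distinct sequences from mouse testes. They carried 3 names, with 56577 sequences under L1Md_F2, 13415 under L1Md_F and 11541 under L1Md_F3, equal to 69.4%, 16.5% and 14.2% of the members. The main values refer to the 64418 members of 24 to 33 nt, the size of small RNAs bound by Piwi proteins. Of these, 44671 were named L1Md_F2, 11100 L1Md_F and 8647 L1Md_F3.

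The study sequenced testis RNA selected for small size from mice mutant for Tdrd1 or Tdrd6, whose products are Tudor-domain proteins of the germ line. The labels give 8 libraries, 1 in each group: Tdrd6 homozygotes and Tdrd6 heterozygotes, each at 18 days, 25 days and 6 weeks of age, and Tdrd1 homozygotes and Tdrd1 heterozygotes, both taken 18.5 days after conception. Wild-type testes are not among these groups, and in whole testes fewer cells of a type cannot be told apart from less RNA per cell. The table analysed is a single list for the whole series, without read numbers and with no sequence tied to a library, so no homozygote could be set against a heterozygote, and each value below counts different sequences and not molecules. A sequence read once weighs as much as one read often, the depth is unknown, no test was run, and 95% intervals (exact, Clopper-Pearson) cover counting error only.

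L1 elements are retrotransposons that copy themselves through RNA. A complete copy has a 5' untranslated region with the promoter, ORF1, which encodes an RNA-binding protein, ORF2, which encodes the endonuclease and reverse transcriptase, and a 3' untranslated region. The A, T and Gf families still have active copies in mice. In male germ cells, Piwi proteins loaded with piRNAs cut L1 transcripts. In the ping-pong cycle the cut made opposite the guide becomes the 5' end of a new piRNA, so that guide and product overlap by 10 nt, a guide that starts with U faces an A at position 10 of the product, and sense and antisense strands both give piRNAs.

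For each name, 1 pair of sequences that overlap by 10 nt is shown here, written 5' to 3' with T for U and with positions 1 and 10 in capitals. Each pair is the one with most distinct sequences at the less frequent of its 5' ends, among pairs on opposite strands of 1 L1 copy and with a match to an annotated transcript of known chromosome. A 5' end means the first 20 nt.
L1Md_F antisense: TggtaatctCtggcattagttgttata
L1Md_F sense: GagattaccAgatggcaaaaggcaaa
L1Md_F2 antisense: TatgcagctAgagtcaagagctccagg
L1Md_F2 sense: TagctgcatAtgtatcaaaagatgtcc
L1Md_F3 antisense: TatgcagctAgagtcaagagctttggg
L1Md_F3 sense: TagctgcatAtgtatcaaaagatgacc
In each of the 3 pairs the first 10 bases of the antisense sequence are the reverse complement of the first 10 bases of the sense sequence. The L1Md_F pair departs from the usual form on its sense side, which starts with G, and therefore on its antisense side, which has C at position 10. The L1Md_F2 and L1Md_F3 pairs have T first and A at position 10 on both strands and lie at the same place of the element. Their antisense 5' ends held 40 and 23 distinct sequences under these names, and their sense 5' ends 25 and 8. The L1Md_F pair had 14 antisense and 3 sense sequences.

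These are repeated sequences, and a genomic position is only an example of where they occur. The L1Md_F2 antisense sequence mapped to 2414 positions by the deposited map number and the sense sequence to 197. The L1Md_F3 sequences mapped to 23 positions (antisense) and 1340 positions (sense), and those of L1Md_F to 74 and 1224. On GRCm38 the L1Md_F3 antisense sequence matched an exon of Cul4a at chr8:13116955-13116981 (minus strand), and the L1Md_F antisense sequence an exon of D10Wsu102e at chr10:83396650-83396676 (plus strand). The L1Md_F2 sense sequence matched Vmn2r112 at chr17:22620149-22620175 (minus strand). The antisense sequence of that pair matched transcripts of 8 genes, among them Gm37834 at chr3:31956897-31956923 (plus strand). The 5' end with most sequences in L1Md_F2 was another antisense one, with 71 distinct sequences, and its 27 nt form mapped to 18942 positions.
L1Md_F2 most populated: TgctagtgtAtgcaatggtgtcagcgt

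The most frequent length was 27 nt under all 3 names. The share of members within 24 to 33 nt was 82.7% in L1Md_F, 78.96% in L1Md_F2 and 74.9% in L1Md_F3. Within this window the mean length was 27.8 nt (SD 1.94) in L1Md_F, 28.01 nt (SD 1.98) in L1Md_F2 and 27.9 nt (SD 2.02) in L1Md_F3, against 27.2 nt for sequences annotated to RefSeq accessions and 27.55 nt for the whole list. Sequences of 29 to 31 nt formed 33.3%, 37.5% and 34.8% of the 3 names. A separate small maximum at 19 nt lies outside the window.

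**Figure D1:**
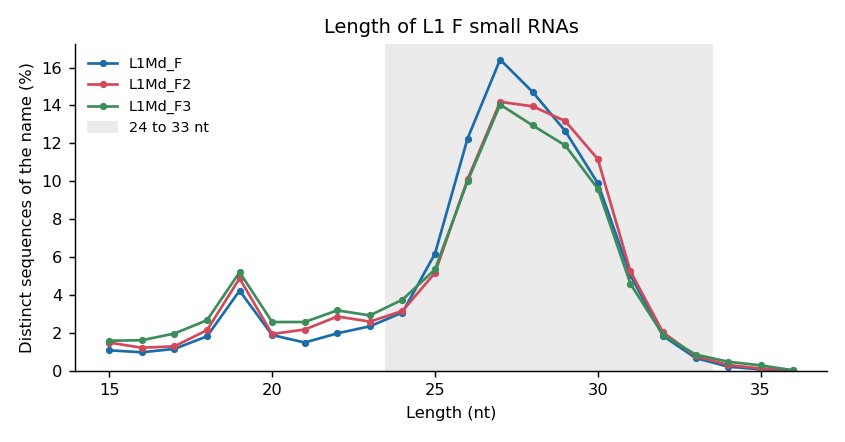
Length of the distinct sequences (x axis, nt) under the names L1Md_F, L1Md_F2 and L1Md_F3, as a percentage of all sequences of the name (y axis), with 24 to 33 nt shaded. All 3 lines peak at 27 nt and have a smaller peak at 19 nt.

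The names differed in how often their sequences occur in the genome. In L1Md_F, 39.8% (95% interval 38.9 to 40.7) of the sequences mapped to 1 position, against 19.7% (19.3 to 20.02) in L1Md_F2 and 19.0% (18.2 to 19.9) in L1Md_F3. The median map number was 3, 33 and 19. Sequences with more than 1000 positions made up 12.1% of L1Md_F, 25.2% of L1Md_F2 and 21.2% of L1Md_F3. For comparison, the share with 1 position was 13.5% in L1Md_A, 12.97% in L1Md_T and 16.2% in L1Md_Gf, the young families, and between 29.4% and 42.5% in L1_Mus1 to L1_Mus4, the mouse-lineage families. L1Md_F thus lay in the range of the L1_Mus names, and L1Md_F2 and L1Md_F3 lay between both sets.

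T was the first base in most F sequences. Its share was 70.6% (69.7 to 71.4) in L1Md_F, 67.1% (66.7 to 67.6) in L1Md_F2 and 64.6% (63.6 to 65.6) in L1Md_F3. The young families had less, with 60.1% in L1Md_A, 60.7% in L1Md_T and 58.3% in L1Md_Gf, and the L1_Mus names more, between 72.2% and 74.9%. RefSeq-annotated sequences had 78.4%. At position 2 the share of T dropped to 20.9% in L1Md_F, 23.2% in L1Md_F2 and 23.3% in L1Md_F3.

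A at position 10, which is what a ping-pong product carries opposite a guide that starts with U, was frequent in all 3 names. L1Md_F2 had it in 45.4% (44.9 to 45.9) and L1Md_F3 in 44.0% (43.0 to 45.1) of sequences, within the range of 39.8% to 47.3% of the young families. L1Md_F had 38.7% (37.8 to 39.6), within the 33.6% to 40.3% of the L1_Mus names. RefSeq-annotated sequences had 25.8% and the whole list 30.7%. Set against the average share of A at the neighbouring positions 9 and 11, it was 19.8 percentage points higher in L1Md_F2, 19.1 in L1Md_F3 and 14.4 in L1Md_F. This excess was 22.2 points in L1Md_A, 18.8 in L1Md_T, 13.7 in L1Md_Gf and between 9.83 and 15.4 in the L1_Mus names. It was 4.65 over the whole list and 1.04 in RefSeq-annotated sequences.

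**Figure D2:**
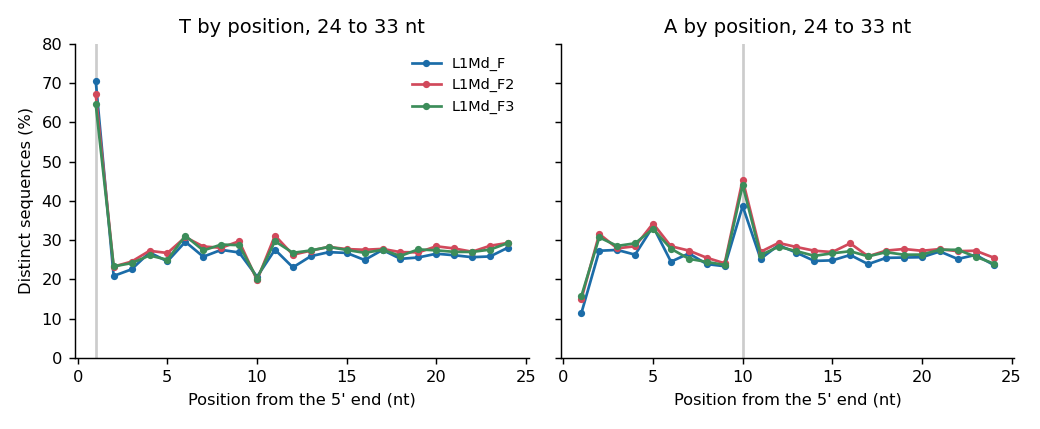
Share of T (left) and of A (right) among distinct sequences of 24 to 33 nt (y axis, %) at each position from the 5' end (x axis, nt) for the 3 F names. T stands out at position 1 in all 3, and A at position 10, where L1Md_F has 38.7%, L1Md_F2 45.4% and L1Md_F3 44.0%.

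Both base preferences were distributed unequally among the sequences. Members without T as first base had A at position 10 more often than members with it, with 51.3% and 33.4% in L1Md_F, 57.0% and 39.7% in L1Md_F2, and 50.9% and 40.3% in L1Md_F3. The mean length of members with A at position 10 and a first base other than T was greater than that of members with T first and no A at position 10, by 0.5004 nt in L1Md_F, 0.250 nt in L1Md_F2 and 0.262 nt in L1Md_F3. The difference was 0.183 nt over the whole list, 0.186 nt in RefSeq-annotated sequences, 0.159 nt in L1Md_A, 0.338 nt in L1Md_T and 0.456 nt in L1Md_Gf. It was 0.176 nt in L1_Mus1 and 0.117 nt in L1_Mus3, but -0.0645 nt in L1_Mus2 and -0.0478 nt in L1_Mus4. The share of A at position 10 also differed with length, without rising at every step. In L1Md_F2 it was 38.2% at 25 nt and 49.9% at 29 nt, in L1Md_F3 33.7% and 48.8%, and in L1Md_F 29.4% and 45.1%.

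Sequences found at 1 position had more T first and less A at position 10 than repeated ones, in the F names as in the whole list. T was first in 75.6% of the L1Md_F sequences with map number 1 and in 67.2% of those with a higher map number. The values were 76.4% and 64.9% in L1Md_F2, and 72.4% and 62.8% in L1Md_F3. A at position 10 was found in 34.1% and 41.7% of these classes in L1Md_F, 40.5% and 46.6% in L1Md_F2, and 40.0% and 45.0% in L1Md_F3. Over the whole list T was first in 72.3% and 66.3% of these classes, and A at position 10 was found in 28.9% and 38.3%. L1Md_A had the other order in A at position 10, with 49.3% at map number 1 and 46.9% above it. In all 3 names T as first base was least frequent among sequences with more than 1000 positions, with 54.7% in L1Md_F, 56.3% in L1Md_F2 and 57.6% in L1Md_F3.

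Opposite-strand partners at 10 nt were in excess under every F name. They were sought without coordinates, by comparing 10 bases at each overlap. At 10 nt these are the first 10 bases of both sequences. Frequent T at position 1 and A at position 10 therefore raise the share at 10 nt by themselves, and not that at 11 to 20 nt. How much of the excess comes from these base shares was not tested, here or in the other searches without coordinates. Of the 28986 5' ends of L1Md_F2, 46.3% (45.8 to 46.9) had a partner at 10 nt in the same list, while the 10 overlaps of 11 to 20 nt averaged 29.7% (SD 1.96) and reached at most 32.7%. In L1Md_F, 28.3% (27.4 to 29.3) of 8411 5' ends had one, against 14.2% (SD 0.653) and at most 15.6%. L1Md_F3 gave 28.2% (27.1 to 29.3) of 6327, against 14.1% (SD 0.729) and at most 15.5%. A longer list offers more partners at every overlap, so shares of lists of different size are not comparable. The ratio to the other overlaps was 1.56 in L1Md_F2 and 1.99 in each of the others. This ratio tended to be lower against longer lists, so it does not rank the names either. For L1Md_F 5' ends it was 2.31 against the 1674 5' ends of L1Md_Gf and 1.70 against the 28986 of L1Md_F2.

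Sequences with map number 1 showed the excess with far fewer partners at other overlaps. Their lists are shorter, which by itself lowers the share at every overlap and affects the ratios given here. A match of 10 bases also does not place both partners at the same locus. When both partners had to map to 1 position, 19.5% of 8105 L1Md_F2 5' ends had a partner at 10 nt, against a mean of 6.42% at 11 to 20 nt. The values were 13.8% and 5.67% for 3571 L1Md_F 5' ends, and 12.01% and 2.43% for 1490 L1Md_F3 5' ends. The ratios were 3.03, 2.44 and 4.94. L1Md_A, L1Md_T and L1Md_Gf gave 3.58, 2.66 and 3.47 in the same comparison, and L1_Mus1 to L1_Mus4 between 2.05 and 2.59.

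Partners were also shared between names. In L1Md_F3, 44.5% of 5' ends had a partner at 10 nt under L1Md_F2, against 27.8% at the other overlaps, and in L1Md_F 36.999% had one there, against 21.7%. L1Md_F2 5' ends found partners under L1Md_T in 31.8% of cases, against 18.9%, and under L1Md_A in 24.5%, against 13.6%. Identical 5' ends crossed the names too. L1Md_F3 and L1Md_F2 shared 1407 5' ends, which are 22.2% of those of L1Md_F3 and 4.85% of those of L1Md_F2, and L1Md_F and L1Md_F2 shared 1265, 15.04% of those of L1Md_F and 4.36% of those of L1Md_F2. L1Md_F2 shared 2619 with L1Md_T, 9.04% of its own and 14.8% of those of L1Md_T.

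Strand and place in the element were read from 1 L1 copy. It is the annotated transcript Gm47164, a single exon at chr10:103207748-103213437 on the minus strand of GRCm38, which matched more members exactly (4903) than any other transcript that is itself an L1 copy. Its 5690 nt hold 200 nt before ORF1, an open ORF1 of 371 codons (positions 201 to 1316), an open ORF2 of 1281 codons (1357 to 5202) and 488 nt after it. With up to 3 mismatches, 59.7% of L1Md_F2, 50.3% of L1Md_F3 and 31.6% of L1Md_F sequences were placed. The median map number of the placed sequences was 137, 109 and 98, against 3, 5 and 1 for those left unplaced. The copy holds only 200 nt of 5' region, so F promoter sequences that lie further upstream are not covered. Of the placed sequences, 13.97% of L1Md_F, 14.17% of L1Md_F2 and 14.64% of L1Md_F3 matched the copy exactly. The share was 39.01% in L1Md_Gf, 30.46% in L1Md_T and 18.32% in L1Md_A, and between 6.1% and 8.55% in the L1_Mus names. The copy is thus closer to placed L1Md_Gf and L1Md_T sequences than to those of the F names.

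On this copy, the placed sequences of the names covered different parts of the element. The unplaced sequences, which are most of L1Md_F, have no known place. Whether L1Md_F sequences of some regions differ too much from this copy to be placed was not tested. Of the placed L1Md_F sequences, 46.9% lay in ORF1, 43.3% in ORF2, 8.50% before ORF1 and 1 single sequence after ORF2. L1Md_F2 had 18.7% in ORF1, 54.2% in ORF2, 3.55% before ORF1 and 23.01% after ORF2. L1Md_F3 had 15.6%, 63.9%, 1.29% and 19.0%. The region after ORF2 is 8.58% of the copy, and L1Md_F2 reached 12566 sequences per kb there, against 4470 in ORF1 and 3757 in ORF2. L1Md_F3 had 1691, 608 and 723 per kb in these regions. In L1Md_F the density was 1474 per kb in ORF1 and 394 in ORF2. Among the comparison names, L1Md_Gf likewise had no sequence after ORF2, and L1Md_T had 14.7% of its placed sequences there.

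**Figure D3:**
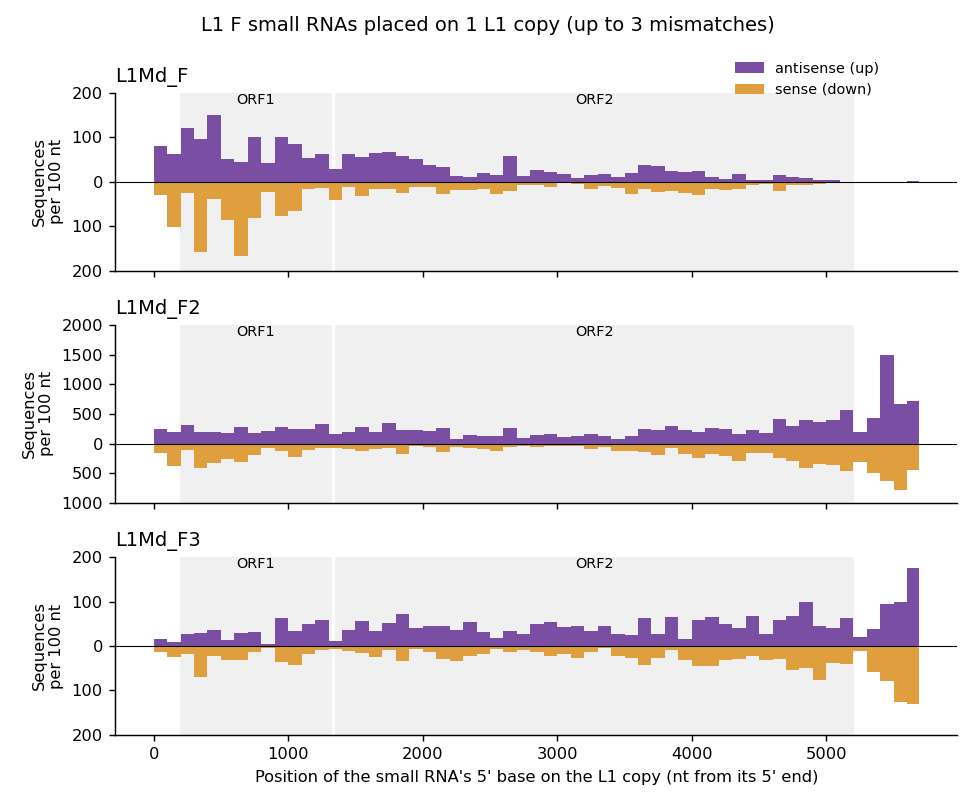
Number of distinct sequences whose 5' base falls in each 100 nt of the L1 copy (the last bin is 90 nt), antisense upwards and sense downwards, for the 3 F names on their own y axes. Placed L1Md_F sequences lie mostly in the 5' part with ORF1. Those of L1Md_F2 and L1Md_F3 are highest after ORF2, where L1Md_F2 has 1488 antisense and 635 sense sequences at 5401 to 5500.

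Antisense sequences were somewhat more numerous than sense ones. On the copy, 57.5% (55.9 to 59.2) of L1Md_F, 57.3% (56.7 to 57.9) of L1Md_F2 and 59.6% (58.1 to 61.0) of L1Md_F3 sequences were antisense. Exact matches to 27 transcripts that are L1 copies with an open frame gave 55.4% in L1Md_F2 and 63.4% in L1Md_F3, but 47.6% (44.7 to 50.6) of 1165 sequences in L1Md_F. Exact matches to the single copy gave 44.7% in L1Md_F, so its share was below 50% for exact matches and above it with mismatches allowed. On the copy with mismatches allowed, the share was 49.1% in L1Md_A, 48.8% in L1Md_T and 36.2% in L1Md_Gf. It was between 62.9% and 74.7% in the L1_Mus names.

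The antisense excess was highest in the first part of ORF2. Between positions 1357 and 2638, 68.4% (65.1 to 71.7) of L1Md_F, 69.2% (67.7 to 70.6) of L1Md_F2 and 70.5% (67.2 to 73.6) of L1Md_F3 sequences were antisense. Between 3921 and 5202 the shares were 43.3%, 52.7% and 57.1%. In ORF1 they were 52.9%, 53.6% and 54.3%. After ORF2 the share was 56.0% (54.8 to 57.3) in L1Md_F2 and 50.8% (47.3 to 54.3) in L1Md_F3.

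Antisense and sense sequences differed in their bases in the same way under the 3 names. T was first in 70.4% of antisense and 56.3% of sense sequences in L1Md_F, in 70.0% and 54.9% in L1Md_F2, and in 70.95% and 52.7% in L1Md_F3. A at position 10 was found in 42.3% of antisense and 53.4% of sense sequences in L1Md_F, in 43.3% and 52.5% in L1Md_F2, and in 45.4% and 52.7% in L1Md_F3. Intervals are not used to compare the strands, because they treat sequences that share a 5' position as independent. For the F names together, 19882 antisense sequences came from 3482 5' positions and 14624 sense sequences from 3203. A at position 10 was found in 44.5% of antisense and 49.3% of sense sequences in L1Md_A and in 46.05% and 51.2% in L1Md_T, while L1Md_Gf had 46.8% in antisense and 44.6% in sense sequences. The strands lay further apart in all 4 L1_Mus names than in the 3 F names, with 37.8% and 55.7% in L1_Mus1 and 37.4% and 62.9% in L1_Mus4. Mean lengths were close, 28.13 nt for antisense and 28.14 nt for sense sequences of the F names together. The most frequent length of the names together was 29 nt for antisense and 27 nt for sense, but in L1Md_F alone it was 28 nt for antisense. The lengths of 29 nt and 27 nt were also found in L1Md_A, L1Md_T and L1_Mus1 to L1_Mus3, but not in L1Md_Gf and L1_Mus4.

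**Figure D4:**
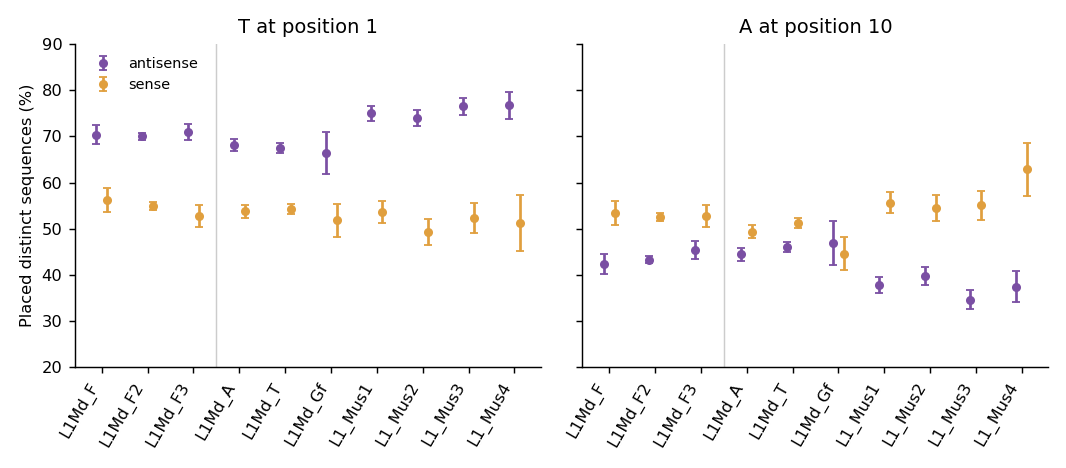
Share with T at position 1 (left) and with A at position 10 (right) among placed antisense and sense sequences (y axis, %, bars are 95% intervals) for the 3 F names, left of the line, and 7 other L1 names. In the F names T is first more often in antisense sequences (70.0% to 70.95%) and A at position 10 more often in sense sequences (52.5% to 53.4%).

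Pairs of antisense and sense 5' ends on the copy had a single maximum at an overlap of 10 nt. The 19882 antisense and 14624 sense F sequences formed 192289 pairs at 10 nt, while the other overlaps of 1 to 30 nt averaged 65292 (SD 6646), a ratio of 2.95. The highest other overlap, 5 nt, reached 1.21 times the mean. By name the ratio was 2.28 in L1Md_F, 2.99 in L1Md_F2 and 3.13 in L1Md_F3. For sequences with map number 1 it was 4.14. Only 13.7% of these were placed on the copy (2031 sequences), none of them exactly and 57.9% of them with 3 mismatches. Partners among them therefore need not come from the same locus. The ratio was 2.83 in L1Md_Gf, 2.76 in L1Md_T, 2.67 in L1Md_A, and between 2.04 and 2.45 in the L1_Mus names.

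**Figure D5:**
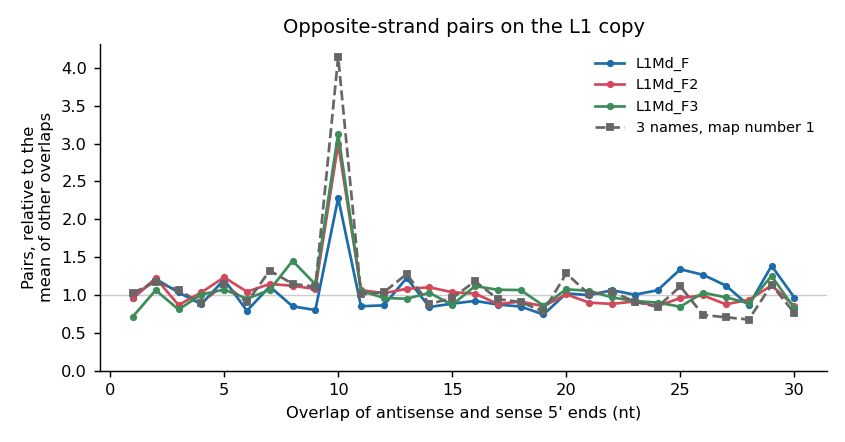
Pairs of antisense and sense sequences on the L1 copy by the overlap of their 5' ends (x axis, nt), relative to the mean of the other overlaps from 1 to 30 nt (y axis), for each F name and for F sequences with map number 1. Each line peaks at 10 nt, with 2.28 in L1Md_F, 2.99 in L1Md_F2, 3.13 in L1Md_F3 and 4.14 for map number 1. The map number 1 line rests on 2031 placed sequences, none an exact match to the copy.

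The excess was not spread evenly along the element. It was 3.49 after ORF2, 2.60 in ORF2 and 2.56 in ORF1, and 2.58 when the region after ORF2 was left out. In the 200 nt before ORF1 it was 1.78 and an overlap of 25 nt was higher, at 2.53. The 10 position pairs with most pairs gave 34.6% of all those at 10 nt. The foremost joined the antisense 5' end at 5447, the end of the most populated sequence shown above (226 sequences), with the sense 5' end at 5438 (107 sequences), and gave 12.6%. The next joined 5671 (149 sequences) with 5662 (115), the L1Md_F2 and L1Md_F3 pair shown above, and gave 8.91%. With each 5' position counted once, 2274 pairs at 10 nt stood against a mean of 2046 (SD 29.9), a ratio of 1.11. Of all positions of the copy, 61.2% held an antisense and 56.3% a sense 5' end. With exact matches only, the ratio was 1.51, and the highest other overlap reached 1.43.

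The bases of sequences with and without a partner at 10 nt are not independent of the partner. Position 10 of a sequence lies opposite position 1 of such a partner, so a partner that starts with T goes with A at position 10 by base pairing, and the same holds for position 1. Antisense sequences with such a partner had A at position 10 in 49.1% (48.3 to 49.8) of cases and those without in 18.8% (17.5 to 20.1). Sense sequences had 57.3% (56.4 to 58.2) and 26.3% (24.5 to 28.2). T was first in 71.5% and 64.1% of antisense and in 59.6% and 28.02% of sense sequences. Of the antisense sequences 81.6% had a partner position, and of the sense sequences 84.9%. At the 29 other overlaps from 1 to 30 nt, a comparison added after the data were seen, A at position 10 differed between sequences with and without a partner by -10.9 to 2.14 percentage points in antisense and by -7.18 to 10.04 in sense sequences, against 30.3 and 31.02 at 10 nt. For T first the other overlaps gave -11.4 to 4.46 and -11.1 to 6.49, against 7.43 and 31.6. At those overlaps position 10 does not lie opposite position 1 of the partner, so they are no control for this base pairing.

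Few members with map number 1 could be assigned to an annotated gene. Of 14842, 228 matched a spliced transcript exactly, and 226 of these matched transcripts of 1 gene, in 60 genes. The 5 genes with most held 109. Zfp65, a zinc finger gene on chromosome 13, had 38, all L1Md_F2, all in the sense direction of its 3' untranslated region, between 67706093 and 67707275, from 25 5' ends, and 18 of them began with T. Olfr1307, an olfactory receptor gene on chromosome 2, had 23 L1Md_F2 sequences in its 3' untranslated region, 12 sense and 11 antisense to the gene. Gm20426, a transcribed pseudogene on chromosome 6, had 20, of which 17 L1Md_F sequences lay on 1 transcript. Tfcp2l1, a transcription factor gene on chromosome 1, had 18 L1Md_F2 sequences, all sense, within 118683666 to 118683721. Reep3, a gene for a protein of the endoplasmic reticulum on chromosome 10, had 10 L1Md_F3 sequences, all sense, within 67010911 to 67010943. Transcripts exclude introns, and the other sequences were not assigned to a locus.

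One sequence with map number 1 is shown for each name, from the most populated 5' end that matched a transcript. Among all map number 1 5' ends of the name, these ends ranked 116 in L1Md_F, 26 in L1Md_F2 and 12 in L1Md_F3.
L1Md_F in Acer2: TaaaaagggAagtagagaatctcaggt
L1Md_F2 in Zfp65: AgatacaaaAatatggaaatcagtctg
L1Md_F3 in Reep3: TatgcagctAgagtcaacaacattatg
The L1Md_F sequence lies at chr4:86932430-86932456 (plus strand), in an exon of a noncoding transcript of Acer2, a ceramidase gene, and its 5' end had 3 distinct sequences. The L1Md_F2 sequence lies at chr13:67707114-67707140 (minus strand) in the 3' untranslated region of Zfp65, with 4 sequences. The L1Md_F3 sequence lies at chr10:67010916-67010942 (minus strand) in that of Reep3, also with 4. It shares its first 17 bases with the L1Md_F3 antisense sequence of the pair shown above and departs from it after them.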

How the data were processed

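The authors deposited 1 table with 3 columns: the sequence, the number of positions it mapped to and a final annotation, per the file headers. Aligner, genome build, annotation sources and any read minimum are not given in the sources used here. Libraries were made from size-selected total RNA by linker ligation and PCR, per the labels' protocols, and biases of ligation and PCR can affect which sequences were seen. No sample has a value of its own (0 columns left unused), and genotype and age were not compared.

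Members were taken by name. Sequences of 24 to 33 nt were used, with 25 to 32 nt as an alternative. All placements, partner searches and intervals were computed with Python 3.11.15, NumPy 2.4.6 and SciPy 1.17.1, and tested on simulated sequences. Matches are ungapped, to GENCODE M21 transcripts (GRCm38). No genome was used, so transcripts took its place for strands. L1 copies were transcripts of at most 7000 nt with at least 500 members, member matches in at least 80% of 25 nt bins and a frame of at least 1000 nt, which set the strand. Ties in placement took the sense strand and lowest position (13 sequences). The 3 names, the comparison names, the rule for printed sequences (each name's most populated 5' end, pair and map number 1 end, nearest to 27 nt) and the 5 loci were chosen with earlier results of these data known. The restriction to sequences that match a transcript of known chromosome and the choice of the L1 copy came after the data were seen.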

Additional observations from a re-analysis of the deposited data

Results flagged for a closer look

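Sequences outside 24 to 33 nt drew attention because the comparisons above did not use them. At 19 nt there were 3924 distinct F sequences, against 1765 at 18 nt and 1647 at 20 nt, with 2757 in L1Md_F2, 600 in L1Md_F3 and 567 in L1Md_F. The whole list had 155625 at 19 nt, 152855 at 18 nt and 134330 at 20 nt. All 7 comparison names had more sequences at 19 nt than at 18 or 20 nt, with 2032 in L1Md_T, against 772 and 830, and 606 in L1_Mus1, against 298 and 299. T was first in 34.6% (33.1 to 36.1) of the 19 nt sequences, and in 33.1% of all 19 nt sequences of the whole list. Of the 19 nt F sequences 33.3% were identical to the start of a member of 24 to 33 nt, against 35.3% at 18 nt and 38.01% at 20 nt.

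The ends of the 19 nt sequences were compared with the place of a ping-pong cut. Such a cut lies opposite the bond between positions 10 and 11 of the guide, so the last bases of an upstream remainder are the reverse complement of the guide from position 11 on. The last 14 bases of 43.0% (41.5 to 44.6) of the 19 nt sequences were the reverse complement of bases 11 to 24 of a member, against a mean of 30.9% and at most 32.4% for the 10 windows that start nearer the guide's 5' end. On the L1 copy, with at most 1 mismatch, pairs in which a 19 nt sequence was followed directly by the 5' end of a member on the same strand were 2.15 times as frequent as at distances of 2 to 20 nt, where the highest value was 1.17 times the mean. This ratio lay between 0.858 and 1.33 at the other lengths from 15 to 23 nt. These pairs count distinct sequences, so crowded positions weigh more. A ratio with each position counted once was not computed for them. The cause was not tested.

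Above the labelled size range there were 388 F sequences of 34 to 36 nt, of which 49.5% (44.4 to 54.6) began with T.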

How the results depend on the processing

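For the 3 names together, T was first in 67.4% of sequences, with 67.8% at 25 to 32 nt, 64.9% with each 5' end counted once and 75.7% at map number 1. A at position 10 was 44.0%, with 40.7% per 5' end and 38.5% at map number 1. The share with map number 1 was 23.04%, and 31.9% of 5' ends. Partners at 10 nt were found for 47.6% of 5' ends, for 22.2% at map number 1 and for 68.0% of positions on the L1 copy. The antisense share was 55.5%, with 57.6% on the copy at up to 3 mismatches and 53.4% for exact matches there. The other 5 alternatives lay within the interval of the main value. The order of the 3 names held in 12 of 15 alternatives and changed for T first at map number 1, A at position 10 per 5' end and the antisense share on the copy with up to 3 mismatches, but not with exact matches there. This count includes orders of partner shares, which depend on list size. It also includes an antisense share averaged over all matches of a sequence, which equalled the main value under each name. The copy was chosen after the data were seen. Comparing 16 bases was not run, because an overlap of 10 nt has only 10 bases in common, and no exact antisense share exists at map number 1, because none of these sequences matched an L1 copy. No paired analysis was possible because no value belongs to a library. With 1 library per group and unknown depth, sequences read rarely may be missing, and their absence cannot be judged.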

Other observations

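On the L1 copy, pairs in which the 3' end of an F sequence was followed directly by the 5' end of another on the same strand were 0.982 times as frequent as the mean at distances of 2 to 20 nt, where the highest value was 1.06. The ratio was 0.825 in L1Md_F, 1.01 in L1Md_F2 and 0.897 in L1Md_F3. The base after the 3' end of 4903 exactly placed sequences was T in 29.04% (27.8 to 30.3), against 31.8% at the last base of the sequence and 29.9% at the next base.

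A single distinct sequence was found at 83.8% of 5' ends in L1Md_F, 79.4% in L1Md_F2 and 81.1% in L1Md_F3. The distinct sequences per 5' end averaged 1.32, 1.54 and 1.37.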
